A study of Mus musculus with 24 samples.

Results

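Transcripts of 9 genes of the integrin adhesion system were followed in mouse hind-limb muscle: the α chains Itga7, Itga3, Itga6, Itga5, Itga9 and Itgav, the β chains Itgb1 and Itgb5, and Itgb1bp2, which encodes melusin, a striated-muscle protein that binds the cytoplasmic tail of the β1 chain. The genes were chosen by name, and every array probe annotated to one of the 9 symbols was read by itself, which gave 20 of 45281 probes and 9 of 19057 named genes. The study set wild-type mice (WT) beside mice with an α7BX2 integrin transgene (TG, strain label α7Tg), either sedentary (at rest) or 3 h after a single downhill run. All mice were females aged 5 weeks. The 4 groups were WT at rest, WT after the run, TG at rest and TG after the run, with 6 arrays each, and the run lasted 40 min at 17 m/min on a slope of 20 degrees after a warm-up of 2 min from 10 m/min. RNA came from the ground gastrocnemius-soleus complex, a whole tissue that holds fast and slow fibres, connective tissue, vessels and blood. The sources used here do not give the promoter or species of the transgene, the number of founder lines, or whether the WT mice were littermates.

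An integrin is a pair of an α and a β chain that spans the cell membrane, binds matrix proteins outside and joins the actin cytoskeleton inside through adaptors such as talin and kindlin. In the adult muscle fibre α7β1 is the main laminin-binding integrin, concentrated at the junctions with tendon and nerve, and it works beside the dystrophin-glycoprotein complex. The α3 and α6 chains also make laminin receptors, α5β1 binds fibronectin, αv pairs with several β chains including β5 to bind vitronectin and related ligands, and α9β1 binds tenascin-C, osteopontin and VCAM-1.

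Values are log2 signals after background correction and quantile normalisation, and a probe counted as detected on an array at a detection p under 0.05. A probe was called in a comparison at a Benjamini-Hochberg adjusted p under 0.05 in limma, over 21791 probes. Fast fibre markers were detected on all 24 arrays for 11 of 11 genes as a check of the labelled tissue. The arrays differed in marker genes of other cells. The mean of 13 measured genes of a 17-gene lymphocyte list fell into a low range, up to 5.94, on 13 arrays and a high range, from 7.57, on 11 (5 at rest, 6 after the run). The mean of 11 slow fibre genes lay at 12.41 or above on 10 arrays (5 at rest, 5 after the run) and at 12.01 or below on 14. By group, 3, 2, 2 and 4 arrays were lymphocyte-high in WT at rest, WT after the run, TG at rest and TG after the run. Among the lymphocyte genes with a probe, detection by the best probe ran from 0 arrays (Cd8a) to 24 (Cd79b, Cd8b1 and Cd52). Cd3e, a T cell receptor subunit, was detected on 14. Array medians were 105.2 to 137.9 intensity units, 40.2% to 46.2% of probes were detected, and pairs of arrays correlated at 0.909 to 0.990.

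No member probe was called in any of the 7 comparisons. Among all probes, 0% were called for exercise in WT, 0.00459% for exercise in TG, 0% for the difference between these responses, 0.078% for genotype at rest, 0.0872% for genotype after the run, 0.00918% for mean exercise over both genotypes and 0.225% for mean genotype over both exercise states. The number of member probes with an unadjusted p under 0.05 was 1 for exercise in WT, 2 for exercise in TG, 1 for mean exercise and 1 for mean genotype, and 0 in the other comparisons. As shares of the 20 probes these are 5%, 10%, 5% and 5%, against 2.07%, 4.44%, 3.79% and 3.11% of all probes, and with 20 probes a single probe makes 5%. In the comparisons where no probe of the array was called, 451 probes (exercise in WT) and 495 (interaction) had an unadjusted p under 0.05. In no comparison between a pair of groups did a member probe's arrays separate without overlap, against 0.0734%, 0.11%, 0.257% and 0.193% of all probes for exercise in WT, exercise in TG, genotype at rest and genotype after the run. WT and TG at rest share 3 replicate numbers, and the sample titles do not say that a number pairs animals. With the replicate number as a block, the probes called for genotype at rest went from 17 to 3, with 0 members either way. The median member difference was 0.02 on the log2 scale for mean exercise (all probes −0.01) and 0.00 for mean genotype (all probes 0.00).

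**Figure D1:**
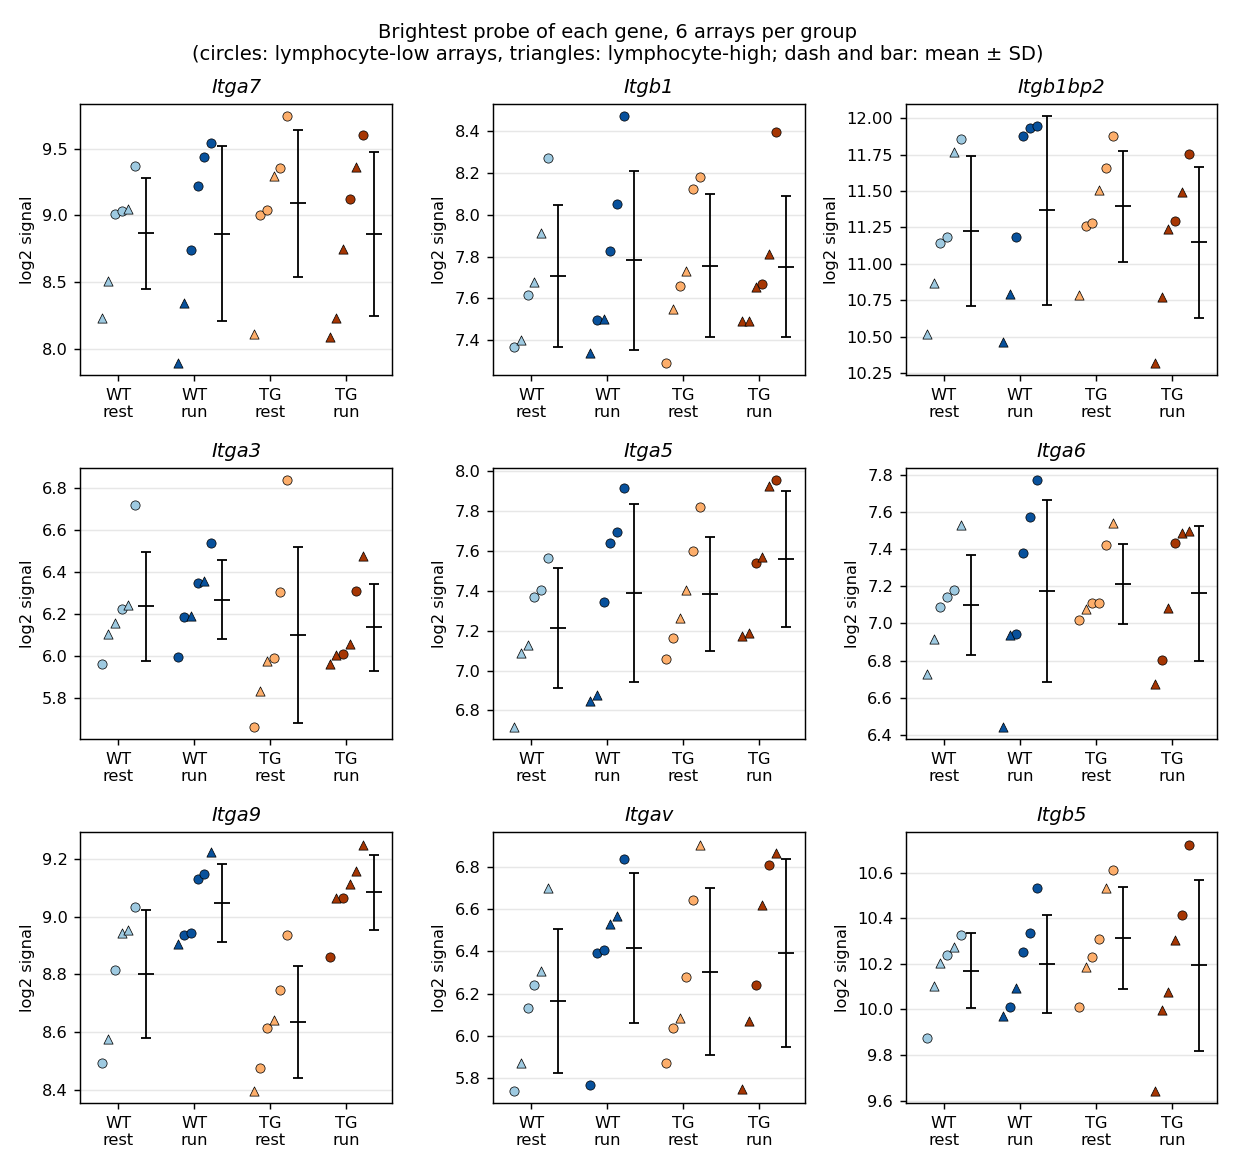
Log2 signal of the brightest probe of each of the 9 genes (vertical axes, one scale per gene) on each array of the 4 groups (horizontal axis), 6 arrays per group, with mean ± SD at the side. Circles are lymphocyte-low and triangles lymphocyte-high arrays. The groups overlap for every gene, and only Itga9 has all 12 run arrays above the median of the rest arrays, 8.69.

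**Figure D2:**
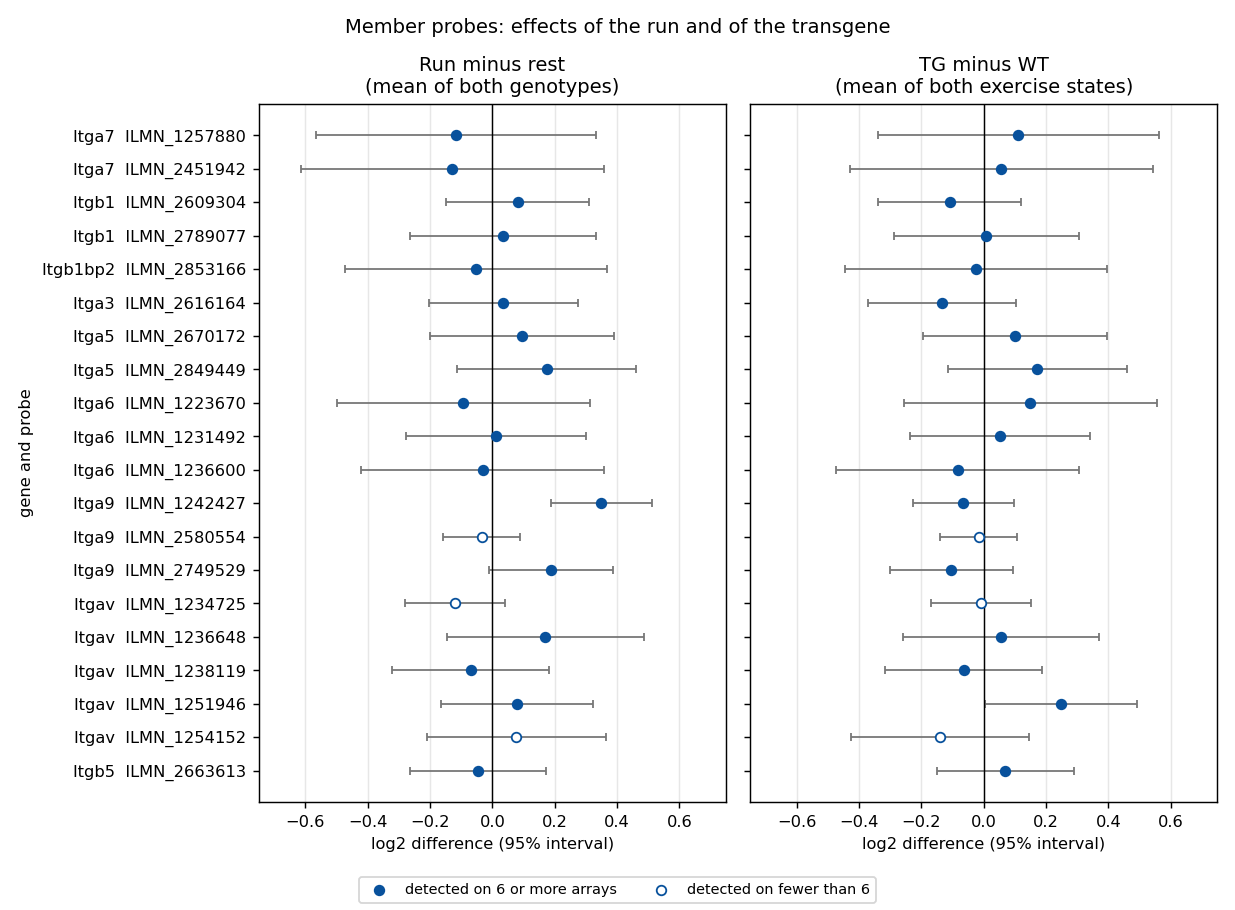
Log2 differences with 95% intervals (horizontal axes) for the 20 member probes (vertical axis), run minus rest on the left and TG minus WT on the right, each averaged over the other factor. Filled points are probes detected on 6 or more of 24 arrays. Itga9 probe ILMN_1242427 stands at 0.35 for the run, and the intervals of the other probes include 0 for the run.

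The laminin-binding α chains come first. Itga7, the α7 chain itself and the gene whose product the transgene adds, read alike in WT and TG muscle. Its brighter probe, ILMN_1257880, had lowest, median and highest log2 signals of 8.23, 9.02 and 9.37 in WT at rest, 7.90, 8.98 and 9.54 in WT after the run, 8.11, 9.17 and 9.74 in TG at rest, and 8.09, 8.94 and 9.60 in TG after the run. The ranges overlap over most of their length in all 4 groups. The mean genotype difference was 0.11 (SE 0.22, 95% interval −0.34 to 0.56, limma adjusted p = 1.0), so a mean rise in TG above that upper bound lies outside the interval for this probe. Its second probe, ILMN_2451942, differed by 0.06 (SE 0.23) between genotypes. No source used here says whether either probe matches the transgene transcript, so the genotype labels cannot be checked by Itga7. The run response of Itga7 was 0.00 (SE 0.31) in WT and −0.23 (SE 0.31) in TG, with an interaction of −0.23 (SE 0.44, adjusted p = 0.938). The slow fibre list had a median interaction of −0.49 over 22 probes, none called. With both list means in the model the Itga7 interaction was 0.16 (SE 0.21) and its mean genotype difference 0.14 (SE 0.10, adjusted p = 0.894), neither called.

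Itga3, a laminin-receptor chain known mainly from epithelia, had a single probe. It ranged from 5.96 to 6.72 in WT at rest (median 6.19), 5.99 to 6.54 in WT after the run (6.27), 5.66 to 6.84 in TG at rest (5.98) and 5.96 to 6.48 in TG after the run (6.03). The widest range was in TG at rest and it contained the whole range of each other group. The genotype difference was −0.13 (SE 0.12) and the run difference 0.03 (SE 0.12), neither called. Itga6, whose product pairs with β1 or β4 and is carried by vessels and nerve sheaths as well as muscle precursors, had 3 probes, detected on 24, 23 and 21 arrays. Its brightest, ILMN_1231492, had medians of 7.12, 7.16, 7.11 and 7.26 in WT at rest, WT after the run, TG at rest and TG after the run, within an overall range of 6.44 to 7.77. The 3 Itga6 probes gave run differences of 0.01 (SE 0.14), −0.03 (SE 0.19) and −0.09 (SE 0.20), and genotype differences of 0.05, −0.08 and 0.15 in the same order. Neither the sign nor the size was shared between the probes.

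Itgb1 encodes the β1 chain, the partner of α7 and of every other α chain described here. Its brighter probe, ILMN_2789077, read 7.37 to 8.27 in WT at rest (median 7.65), 7.34 to 8.47 in WT after the run (7.67), 7.29 to 8.18 in TG at rest (7.70) and 7.49 to 8.39 in TG after the run (7.66). The 4 medians lie close together inside much wider ranges. The run difference was 0.03 (SE 0.14) and the genotype difference 0.01 (SE 0.14). A second probe, ILMN_2609304, gave 0.08 (SE 0.11) for the run and −0.11 (SE 0.11) for genotype. Itgb1 is also the member that lies on chromosome 8, where 11 of the 49 probes called for mean genotype lie. The 11 called genes stand 1243 to 1358 RefSeq genes away from Itgb1 in the order of GRCm38.p6. Chromosome 7, with 19 of the calls, holds no member.

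Melusin, the product of Itgb1bp2, is thought to act in mechanical signalling in heart and skeletal muscle. Its probe, ILMN_2853166, read 10.52 to 11.86 in WT at rest (median 11.16), 10.46 to 11.95 in WT after the run (11.53), 10.79 to 11.88 in TG at rest (11.39) and 10.32 to 11.75 in TG after the run (11.27). All groups spread over more than a log2 unit. The run difference was 0.14 (SE 0.29) in WT and −0.25 (SE 0.29) in TG, and their difference, −0.39 (SE 0.41, adjusted p = 0.935), was not called. With both list means in the model that difference was −0.02 (SE 0.14).

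The fibronectin and vitronectin receptor chains showed no called difference. Itga5, the α chain of the main fibronectin receptor, had 2 probes detected on all 24 arrays. The brighter, ILMN_2849449, read 6.72 to 7.57 in WT at rest (median 7.25), 6.85 to 7.92 in WT after the run (7.49), 7.06 to 7.82 in TG at rest (7.34) and 7.17 to 7.96 in TG after the run (7.56). In each genotype the run group has the higher median on this probe, and the ranges overlap. Its mean run difference was 0.17 (SE 0.14, 95% interval −0.11 to 0.46, limma adjusted p = 0.998). The second probe, ILMN_2670172, gave 0.09 (SE 0.14). Its medians were 6.04 and 6.39 in WT at rest and after the run, but 6.38 and 6.34 in TG. Itgb5, the β chain that pairs with αv, read 9.88 to 10.33 in WT at rest (median 10.22), 9.97 to 10.53 in WT after the run (10.17), 10.01 to 10.61 in TG at rest (10.27) and 9.64 to 10.72 in TG after the run (10.19). TG after the run held both the lowest and the highest array of this probe. Its run difference was −0.05 (SE 0.11) and its genotype difference 0.07 (SE 0.11).

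Itgav, the αv chain of vitronectin and latent TGF-β receptors, had 5 probes with unlike behaviour. ILMN_1236648 was detected on all 24 arrays and read 5.74 to 6.70 in WT at rest (median 6.19), 5.77 to 6.84 in WT after the run (6.47), 5.87 to 6.91 in TG at rest (6.18) and 5.75 to 6.87 in TG after the run (6.43). The ranges of the 4 groups overlap almost wholly. Its run difference was 0.17 (SE 0.15) and its genotype difference 0.06 (SE 0.15). ILMN_1251946, detected on 20 arrays, had an unadjusted p of 0.046 for genotype with TG above WT by 0.25 (SE 0.12, adjusted p = 1.0). Its medians were 5.07 and 5.25 in WT at rest and after the run, against 5.39 and 5.36 in TG. The other three gave genotype differences of −0.06 (ILMN_1238119, detected on 23 arrays), −0.14 (ILMN_1254152, on 5) and −0.01 (ILMN_1234725, on 0), so no direction is shared by the Itgav probes.

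Itga9, the α9 chain, had the largest run difference of the 20 member probes. Its brightest probe, ILMN_1242427, was detected on all 24 arrays, and the platform annotation gives it the symbol Itga9 but no transcript. Its lowest, median and highest log2 signals were 8.49, 8.88 and 9.03 in WT at rest and 8.90, 9.04 and 9.23 in WT after the run. In TG they were 8.39, 8.63 and 8.94 at rest and 8.86, 9.09 and 9.25 after the run. All 12 run arrays lay above the median of the 12 rest arrays, 8.69, and 8 run arrays lay above every rest array, but the groups overlap within each genotype. By mean, the order was TG at rest (8.63 ± 0.19, SD, n = 6), WT at rest (8.80 ± 0.22), WT after the run (9.05 ± 0.14) and TG after the run (9.09 ± 0.13). The neighbours at rest differed by −0.17 (TG minus WT, SE 0.11) and those after the run by 0.04 (SE 0.11), neither called. The run difference was 0.25 (SE 0.11, unadjusted p = 0.036, limma adjusted p = 1.0) in WT and 0.45 (SE 0.11, unadjusted p = 0.00048, adjusted p = 0.791) in TG, and the interaction was 0.20 (SE 0.16, adjusted p = 0.935). Averaged over genotypes it was 0.35 (SE 0.08, 95% interval 0.19 to 0.51, 1.27-fold), with an adjusted p of 0.296, and 13th by p among the 21791 probes. The difference is larger than the within-group SD of this probe, 0.17, and does not pass the adjustment over all probes.

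With the lymphocyte and slow fibre list means of each array in the model, Itga9 rose by 0.37 on the log2 scale after the run (SE 0.08, limma adjusted p = 0.0417, n = 6 per group). That fit called 48 probes for mean exercise, 0.22% of all, and Itga9 was the single member probe among them. Its own slopes on the lists were −0.01 per log2 unit of the lymphocyte mean and −0.09 per unit of the slow fibre mean, neither called. In fits without covariates the difference was not called on all 24 arrays (above), nor without the lymphocyte-high arrays (0.27, adjusted p = 0.909) or the slow-fibre-high arrays (0.30, adjusted p = 0.849), and it was not called with the slow fibre mean alone as covariate (adjusted p = 0.0552) or the lymphocyte mean alone (adjusted p = 0.184). Within the 13 lymphocyte-low arrays the run and rest means were 9.02 ± 0.12 (SD, n = 6) and 8.73 ± 0.22 (n = 7), and within the 11 lymphocyte-high arrays 9.12 ± 0.13 (n = 6) and 8.70 ± 0.24 (n = 5). The run mean was above the rest mean in both of these subsets. They and the slow fibre subsets below are parts of the same 24 arrays and give no separate support. The lymphocyte-high arrays were 3 WT and 2 TG at rest and 2 WT and 4 TG after the run. The slow-fibre-high arrays were 2 WT and 3 TG at rest and 3 WT and 2 TG after the run. Genotype is therefore mixed into the run difference in the lymphocyte and the slow fibre subsets, both high and low. Among the 10 slow-fibre-high arrays the run and rest means were 9.03 ± 0.08 (SD, n = 5) and 8.60 ± 0.18 (n = 5), and among the other 14 they were 9.09 ± 0.15 (n = 7) and 8.80 ± 0.21 (n = 7). Neutrophils are a cell type in which α9β1 is known. Their markers had a median run difference of −0.01 over 6 probes in WT (3 positive) and 1.66 in TG (6 positive), none called. Itga9 gave 0.25 and 0.45. The mean of the 6 measured genes of the 7-gene neutrophil list spanned 5.63 to 9.76 in WT at rest, 5.76 to 8.92 in WT after the run, 4.85 to 6.97 in TG at rest and 5.40 to 9.30 in TG after the run, and its part in the Itga9 value was not tested. In whole muscle a change in the number of cells carrying a transcript and a change in the amount per cell cannot be told apart.

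The other Itga9 probes are dim. ILMN_2749529 was detected on 4 arrays of WT at rest, 3 of WT after the run, 0 of TG at rest and 3 of TG after the run. Its mean run difference was 0.19 (SE 0.10, adjusted p = 0.998). Since it was not detected on any array of TG at rest, its level there is only bounded. The measured means were 5.15 in TG after the run and 4.87 in TG at rest (limma adjusted p = 0.889). With the TG at rest arrays raised to their lowest detected signal, the ratio was 1.01. The mean after the run includes arrays without detection, so this ratio is not a lower bound on the difference. ILMN_2580554 was detected on 0 arrays and gave −0.03 (SE 0.06) for the run. The rise of the first probe under the covariates therefore has no second well-detected Itga9 probe to stand beside it.

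**Figure D3:**
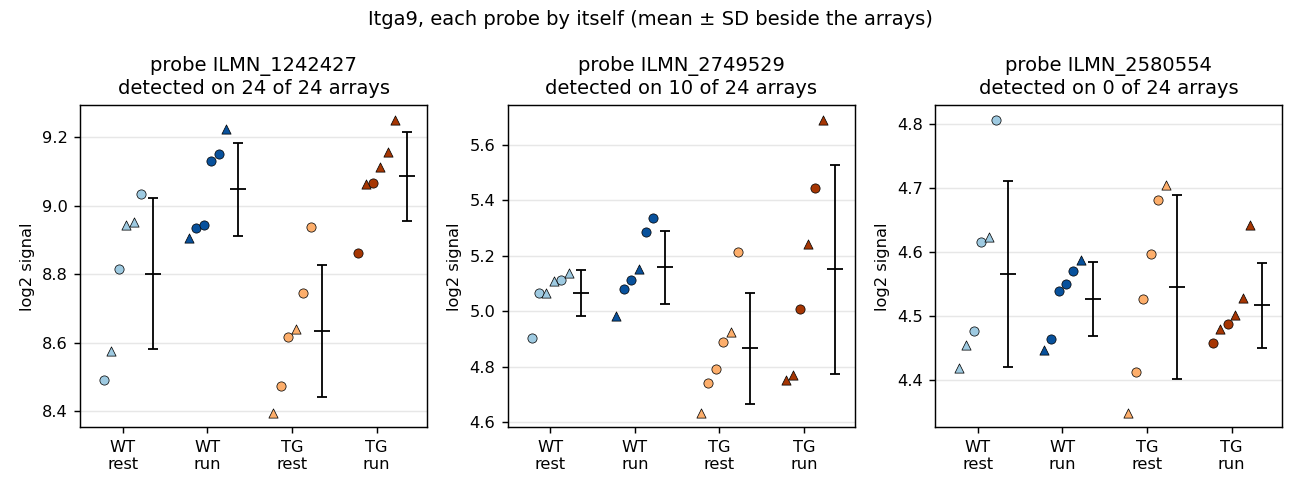
Log2 signal of the 3 Itga9 probes (one panel and one vertical scale each) on the 24 arrays by group (horizontal axis), with mean ± SD at the side and triangles for lymphocyte-high arrays. On probe ILMN_1242427 the run arrays lie at 8.86 to 9.25 and the rest arrays at 8.39 to 9.03, while the other probes were detected on 10 and 0 arrays.

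Promoter windows, from 250 bases before to 50 after the transcript start, were found in RefSeq (GRCm38.p6) for 6 of the 9 genes, Itgb1, Itga3, Itga5, Itga9, Itgav and Itgb5. Itga9 is shown as the member with the largest run difference and Itgb1 as the common β chain, whose brighter probe gave 0.03 for the run. The Itga9 window is chr9:118711442-118711741, plus strand, which lies inside the RefSeq span of the gene, and the Itgb1 window chr8:128685404-128685703, plus strand. Capitals mark E-boxes (CANNTG), GC boxes (GGGCGG) and AP-1 sites (TGANTCA), searched on both strands.
Itga9: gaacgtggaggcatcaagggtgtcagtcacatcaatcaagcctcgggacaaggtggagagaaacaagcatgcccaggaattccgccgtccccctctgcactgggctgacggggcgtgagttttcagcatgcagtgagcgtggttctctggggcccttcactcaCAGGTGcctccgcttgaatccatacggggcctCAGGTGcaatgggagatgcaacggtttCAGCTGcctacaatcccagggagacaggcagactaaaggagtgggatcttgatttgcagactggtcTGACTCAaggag
Itgb1: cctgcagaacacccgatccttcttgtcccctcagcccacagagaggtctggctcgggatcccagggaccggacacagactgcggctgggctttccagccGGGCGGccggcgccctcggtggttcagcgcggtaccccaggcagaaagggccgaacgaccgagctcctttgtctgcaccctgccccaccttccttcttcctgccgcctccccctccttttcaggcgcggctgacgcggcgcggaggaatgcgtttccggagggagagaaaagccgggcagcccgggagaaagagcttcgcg
The Itga9 window holds 3 E-boxes and 1 AP-1 site and no GC box, and its GC content is 56.7%. The AP-1 letters begin 38 bases after the start. The Itgb1 window holds 1 GC box, no E-box and no AP-1 site, at 67.3% GC. Of 32544 RefSeq promoter windows, 72.3% hold an E-box, 35.9% a GC box and 7.79% the AP-1 letters, and a TATA box (TATAAA), found in no member window, occurs in 13.6%. A match describes the letters only and shows no factor at work.

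The members varied between arrays of the same group. The within-group SD of the 20 probes had a median of 0.35, from 0.11 to 0.61, against a median of 0.31 over all probes. Both Itga7 probes (0.56 and 0.61) and the melusin probe (0.52) were the most variable members. The lymphocyte and slow fibre list means were themselves related over the 24 arrays (r = −0.64), so slopes on them are not independent. In the fit with both list means, the slope on the slow fibre mean was called for 9 of 20 member probes (45%, all upward), where 49.6% of all probes had a called slope and 26.2% an upward one. Melusin rose by 0.59 per log2 unit of the slow fibre mean (SE 0.07, adjusted p = 6.5e-07), Itga7 by 0.52 (SE 0.10, adjusted p = 0.00014) and Itgb1 by 0.42 (SE 0.08, adjusted p = 0.00024) on their brighter probes. All 3 Itga6 probes had called upward slopes, 0.36 (SE 0.10), 0.59 (SE 0.14) and 0.63 (SE 0.12). So did Itgav probe ILMN_1236648, at 0.49 (SE 0.10), and ILMN_1254152, detected on 5 arrays, at 0.40 (SE 0.10). The second Itga7 probe had a called slope of 0.29 (SE 0.11). Itga3, both Itga5 probes, all 3 Itga9 probes and Itgb5 had none. Nor was the slope called for the second Itgb1 probe, ILMN_2609304, which was detected on all 24 arrays. Its sign was opposite to that of the brighter probe (−0.12, SE 0.08, limma adjusted p = 0.215). Itgav probe ILMN_1238119, detected on 23 arrays, likewise had an uncalled slope opposite to the brightest Itgav probe (−0.19, SE 0.11, limma adjusted p = 0.149).

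Slopes on the lymphocyte mean were called for 4 member probes (20%, against 34.6% of all probes). The second Itga7 probe fell by 0.20 per log2 unit (SE 0.04, adjusted p = 0.0018), the second Itgb1 probe by 0.12 (SE 0.03, adjusted p = 0.0057) and the second Itga5 probe by 0.13 (SE 0.04, adjusted p = 0.010). Itgav probe ILMN_1236648 rose by 0.16 (SE 0.04, adjusted p = 0.0033). Downward slopes were called for 19.2% of all probes.

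The relation to slow fibre genes was also read within both sets of arrays, for the brightest probe of each member. For melusin, r with the slow fibre mean was 0.94 over the 13 lymphocyte-low arrays and 0.90 over the 11 lymphocyte-high ones. Itgb1 gave 0.92 and 0.79, Itga7 0.77 and 0.78, Itga6 0.56 and 0.80, Itgav 0.77 and 0.56, and Itga5 0.34 and 0.53. For Itga9 the values were 0.28 and −0.32, for Itga3 −0.02 and −0.39, and for Itgb5 −0.15 and 0.50. These r values are descriptions over arrays that share a normalisation.

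**Figure D4:**
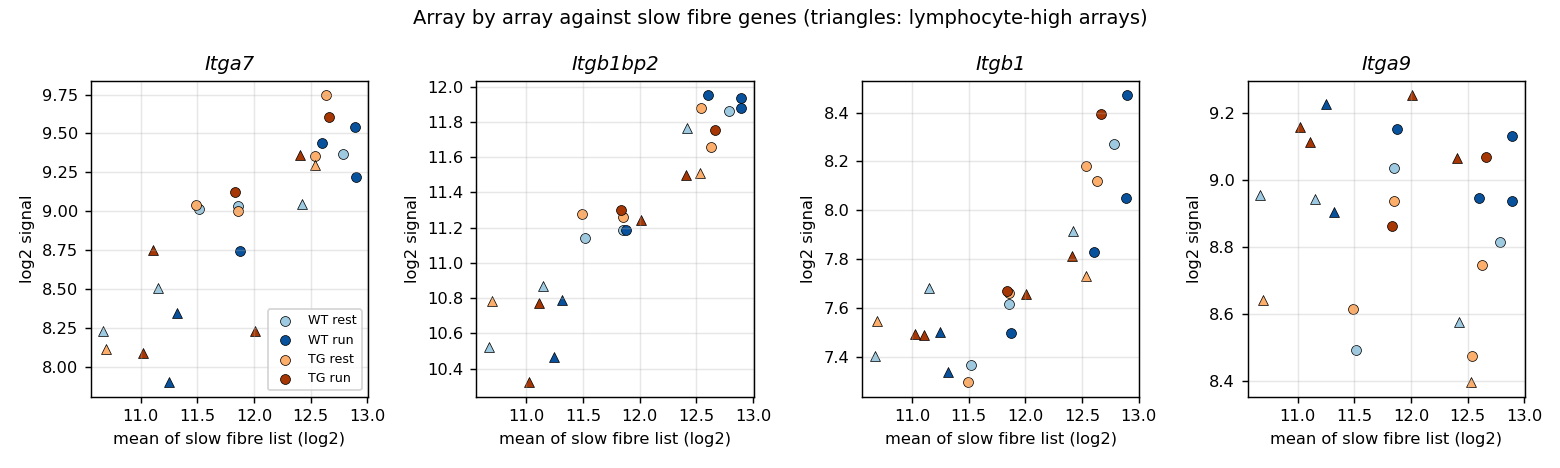
Log2 signal of the brightest probe of Itga7, Itgb1bp2, Itgb1 and Itga9 (vertical axes) against the mean of 11 slow fibre genes (horizontal axis, log2), one point per array, coloured by group, with triangles for lymphocyte-high arrays. Itgb1bp2 follows the slow fibre mean most closely (r = 0.94 over all 24 arrays), and Itga9 does not (r = −0.13).

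Over the 24 arrays the members fell into those that varied together and those that did not. After the group means were taken out, the brightest probes of Itga7 and melusin correlated at 0.89, Itgb1 and melusin at 0.79, and Itga7 and Itgb1 at 0.68. Melusin and Itga6 gave 0.73 and melusin and Itga5 0.64. Of 36 pairs, 10 exceeded 0.5 and 11 were negative, with a median of 0.19. The share of all probe pairs above 0.5 was not computed. Many genes outside the list came closer to these members. By r over the 24 arrays with the groups left in, melusin ranked 181st of 11245 symbols for Itga7. For Itgb1, melusin ranked 180th and Itga7 1123rd. After the group means were taken out, Itga9 was negative with 7 of the 8 others, lowest with Itgav at −0.44. The r of Itga3 with the others stayed between −0.24 and 0.13. Some values depended on the arrays read. Within the lymphocyte-low arrays, groups left in, Itga9 gave 0.65 with Itga5, 0.33 with Itga6, 0.26 with Itgb1 and 0.11 with Itgb5. There it gave 0.07 with melusin, 0.05 with Itgav, −0.08 with Itga7 and −0.26 with Itga3. Melusin and Itga5 gave 0.11 in those arrays and 0.55 in the lymphocyte-high ones. All pairs share arrays and normalisation, so these r values are descriptions without a test.

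**Figure D5:**
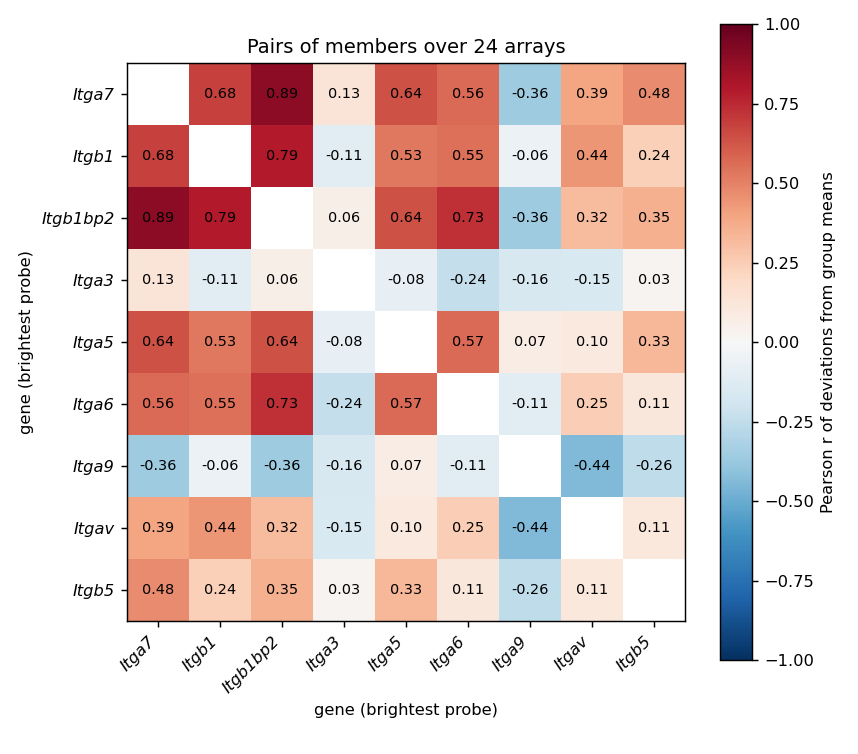
Pearson r between the brightest probes of the 9 genes (both axes), from deviations from the group means over 24 arrays, with colour running from −1 (blue) to 1 (red). The highest value, 0.89, joins Itga7 and Itgb1bp2, and the row of Itga9 is mostly negative, down to −0.44.

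Probes of the same gene did not always vary together. Over the log2 signals of the 24 arrays, with the groups left in, the Itga7 probes correlated at 0.90, the Itga5 probes at 0.73, and the dimmer Itga6 probes with the brightest at 0.80 and 0.71. The 2 Itgb1 probes, both detected on every array, gave 0.09, and −0.14 and −0.62 within the lymphocyte-low and lymphocyte-high arrays. Itgav probes ILMN_1238119 and ILMN_1236648, detected on 23 and 24 arrays, gave −0.54. For Itgb1 and Itgav the order of the arrays thus depended on the probe read.

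The named genes most like each member by Pearson r over 24 arrays, among 11245 symbols, differed between the members. For Itga9 they were Sulf1, an extracellular sulfatase of heparan sulfate (r = 0.83), Fndc3b, a fibronectin type III domain protein (0.83), and Man2a1, a Golgi mannosidase (0.79). Their own mean run differences were 0.30, 0.31 and 0.48, none called. For Itga7 they were Gapdh, a glycolytic enzyme (0.96), Hoxc10 and Ptpn21. For melusin they were Cacnb1, the β subunit of the muscle calcium channel (0.96), Cpped1 and Sar1a. Itga5 had Adgrd1 (0.81), Rab15 and Lamc1, the laminin γ1 chain (0.79), and Itga6 had Nhsl2 (0.86), Rtraf and Mcam, a vascular adhesion molecule. Itgb1 had Golga1 (0.88), Arfgef2 and Olfr420, Itgav Sbno1 (0.90), Ggnbp2 and Nup214, Itgb5 Wdr45 (0.77), Cyp27a1 and Mdh2, and Itga3 Sap30bp (0.68), Fam20b and Gzmn.

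The rest of the integrin system was read from lists. Of 18 other integrin chains, 17 had a probe and 12 had a probe that passed the detection filter, and limma called 0 of their 21 probes in any comparison (0 with an unadjusted p under 0.05 for mean exercise and 0 for mean genotype). Their median run difference was 0.02, against −0.01 over all probes. Itga2, Itgam, Itgax, Itgb3 and Itgb8, chains known from platelets, leukocytes or epithelia, had no probe that passed. Among chains that did, Itgb6, an epithelial αv partner, had a genotype difference of 0.34 (SE 0.20), and Itga11, a collagen receptor chain of fibroblasts, −0.23 (SE 0.12), neither called.

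Among the extracellular ligands limma called 0 of 33 probes (24 of 30 genes) in any comparison, with 1 at an unadjusted p under 0.05 for mean exercise and 3 for mean genotype. Over all probes the shares at that p were 3.79% and 3.11%, against which the counts of each list can be read. Ccn1 and Ccn2, matricellular proteins that bind integrins, had the smallest p of the list for the run and for genotype. Ccn1 probe ILMN_1235571 had means of 5.99 and 6.40 in WT at rest and after the run and 6.22 and 6.71 in TG, a mean run difference of 0.45 (SE 0.22). Ccn2 probe ILMN_1238215 had means of 9.99 and 10.16 in WT and 10.72 and 10.35 in TG, a genotype difference of 0.46 (SE 0.18). Neither passed the adjustment over all probes.

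Adaptors of the adhesion site, 48 probes for 29 of 32 genes, also had 0 limma calls, with 1 and 1 at an unadjusted p under 0.05 for the same comparisons. Csrp3, a muscle LIM protein of the Z-disc and a list member, was lower in TG by mean, at 11.21 and 11.97 at rest and after the run against 12.22 and 12.77 in WT, a genotype difference of −0.91 (SE 0.34) that was not called. The gene lies on chromosome 7, which holds 19 of the probes called for mean genotype, and a link between these was not tested. Pxn, which encodes paxillin, gave −0.32 (SE 0.10, adjusted p = 0.813) for the run on probe ILMN_1225102, which was detected on 7 arrays. Another Pxn probe, ILMN_3123303, was detected on 24 arrays and did not share that fall in WT. Its means were 7.37 and 7.47 in WT at rest and after the run and 7.61 and 7.56 in TG. Membrane partners (17 probes, 11 of 12 genes) and downstream kinases and GTPases (22 probes, 12 of 20 genes) had 0 limma calls as well, with 0 and 0, and 2 and 0, at an unadjusted p under 0.05. Sdc4, a syndecan that acts with α5β1, gave 0.72 (SE 0.36) for the run, and Mtor, the growth kinase, −0.22 (SE 0.09). Median run differences of the 4 lists were 0.03 for ligands, 0.01 for adaptors, 0.03 for membrane partners and −0.04 for downstream genes, against −0.01 over all probes.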

How the data were processed

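Gene expression was measured in mouse gastrocnemius-soleus muscle on 24 Illumina bead arrays, and groups and replicate numbers came from the sample titles. The deposited table holds 1 linear signal intensity per probe and array, not normalised between arrays, with a detection p-value beside it, per the file headers. A second table, deposited by the authors, holds log2 values, and R 3.1.1 and limma 3.20.8 are named in the submitters' processing notes. The sources used here give neither the bead summary software and any earlier background step nor slides and scan dates. The deposited log2 values differed by at most 0.0269 from those computed here.

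Intensities were processed with neqc (limma 3.58.1, R 4.3.3, offset 16, using the detection p-values). Probes with a detection p under 0.05 on at least 6 arrays, 21788 in number, were fitted together with the 3 member probes that missed this filter, 21791 in all, so that 17 of 20 member probes passed. One model with 4 group means was fitted with lmFit and eBayes, two-sided, for 7 contrasts, adjusted by Benjamini-Hochberg over all 21791 probes. Slopes came from the same model with the lymphocyte and slow fibre list means added. Where a probe was detected on none of a group's arrays, a ratio was computed with the signal of that group bounded. Each dim array was raised to its lowest detected signal if the probe read below it, and the measured mean of the brighter group was divided by the mean of these. Of the probes, 34885 have 1 symbol in the platform annotation, 18 several and 10378 none (0 symbols updated).

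The members, the lists, the naming rule (all member probes, up to 3 genes per list with the smallest p for the mean contrasts, and the 3 genes most like each member) and the alternatives were chosen with earlier results of these data known. A gene's brightest probe is the one whose mean over the 24 arrays was highest. For genotype at rest, the deviations of all 3 pairs of arrays with a shared replicate number correlated above 0.1 (0.32 to 0.65). In no other comparison did all pairs do so. The shared number was the best match in 0 of these 3 pairs, so the numbers are not shown to pair the arrays. P-values measure the spread between these arrays, 6 per group, and that number limits the precision. Alternatives were 12 settings, leaving out each of 24 arrays, and 2 settings added after seeing the data.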

Additional observations from a re-analysis of the deposited data

Results flagged for a closer look

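Of 72 groups of 6 arrays (the 18 member probes detected on at least 1 array, by group), 6 held an array whose gap to the others exceeded Dixon's 95% critical value, where chance flags about 1 in 20. In WT at rest, array 1 stood apart for 3 probes. It was high for Itga3 at 6.72, against 5.96 to 6.24 on the other arrays, low for Itga9 probe ILMN_2749529 at 4.91 against 5.07 to 5.14, and high for Itgav probe ILMN_1254152 at 5.91 against 4.56 to 4.85. In TG at rest, array 7 was low for Itga7 probe ILMN_2451942 at 5.44, against 6.53 to 7.17, and it is the array of that group with a slow fibre mean of 10.69. In TG after the run, array 4 was high for Itgb1 probe ILMN_2789077 at 8.39, against 7.49 to 7.81, with a slow fibre mean of 12.67, and array 3 was low for Itgav probe ILMN_1238119 at 4.82, against 5.58 to 5.94. The flagged values of 4.91 (Itga9) and 4.82 (Itgav) were themselves not detected. Itgav probe ILMN_1254152 was detected on 1 array of WT at rest, the flagged one. Causes of these values were not tested.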

How the results depend on the processing

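Of 5120 member values recomputed over 38 settings, 4663 kept their direction and their side of the threshold, 456 uncalled values changed sign, 1 (Itga9, mean exercise, with both list means as covariates) passed the threshold, and 0 called values changed sign. That setting gave 1 member call in place of 0. The Itga9 mean exercise difference stayed between 0.27 and 0.38 in all 37 alternatives that could give it, with adjusted p from 0.0417 to 0.909. Leaving out each array in turn gave 0.32 to 0.38 and 0 member calls in every comparison.

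Counts over all probes moved more. For exercise in TG, the 1 call went to 0 with median scaling, with only the 2 groups in the fit, with the replicate block, and without the lymphocyte-high or the slow-fibre-high arrays, and to 7 with the slow fibre mean alone as covariate. For exercise in WT, array weights gave 2 calls in place of 0. For genotype at rest (17), the stricter detection filter gave 5, 1 probe per symbol 11, the replicate block 3, both covariates 29, and leaving out the lymphocyte-high or slow-fibre-high arrays 4 or 3. For genotype after the run (19), the same settings gave 6 with the filter, 3 with the block, 39 with both covariates, and 3 and 3 without those arrays, with 8 for only the 2 groups and 31 with the slow fibre covariate. For mean exercise (2), both covariates gave 48, the slow fibre mean alone 27, the lymphocyte mean alone 4, and leaving out either set of arrays 0. For mean genotype (49), the filter gave 20, the block 8, both covariates 132, the slow fibre mean 92, the lymphocyte mean 80, and leaving out the lymphocyte-high or slow-fibre-high arrays 15 or 5. Leaving out each array in turn gave 0 to 1 for exercise in WT, 0 to 2 for exercise in TG, 12 to 19 for genotype at rest, 9 to 23 after the run, 2 to 5 for mean exercise and 39 to 54 for mean genotype. Subsets and the block leave fewer arrays or degrees of freedom, and otherwise the cause was not tested.

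Median scaling moved the median interaction of all probes from −0.02 to 0.10, so signs of small interactions depend on the scaling. The block changed no member call. Signal limits 3 of the 20 probes, detected on fewer than 6 arrays.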
